A study of Mus musculus with 15 samples.

Results

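RNA was sequenced from brain tumors of 4 mouse glioma lines taken at the humane endpoint and from naïve brain, with 3 mice in each of the 5 groups, and the genes described here encode voltage-gated sodium channels, voltage-gated calcium channels and potassium channels. Members were the protein-coding genes whose GENCODE symbol began with Scn and a number followed by a or b, with Cacna, Cacnb or Cacng, or with Kcn and a further letter. The rule took 134 of the 46679 genes in the tables, of which 14 were sodium, 26 calcium and 94 potassium channel genes, auxiliary subunits included. Of these, 102 had enough counts to be tested and 32 had not, and 2 of the 32 (Kcnk15 and Kcnk16) had no count in any sample. Another 5 genes with such symbols (Kcnd3os, Kcnq1ot1, Kcnmb4os1, Kcnmb4os2 and Kcnab3os) were antisense transcripts and were left out.

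The mice were C57BL/6 of 6 to 8 weeks of age at implantation. CT2A and GL261 are lines from chemically induced gliomas, and 005 and Mut3 are lines from genetically engineered mice. All of the lines carried GFP and firefly luciferase. Mice received 500000 cells in the Mut3 group and 100000 cells in the other tumor groups, in the right hemisphere, whereas the naïve brains held no tumor. Tumor tissue was excised after perfusion with PBS and extracted whole, so each sample mixed tumor cells with host neurons, glia, vessels and immune cells, and fewer cells of a type cannot be told apart from less RNA per cell. Each line stands for a single tumor origin.

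Voltage-gated sodium channels start and carry the action potential, voltage-gated calcium channels couple it to transmitter release, firing patterns and gene expression, and potassium channels repolarize the membrane and set its resting level. Each channel is built from pore-forming alpha subunits, and auxiliary subunits change its gating and its transport to the membrane. Neurons hold most of the voltage-gated types in brain. Astrocytes are known for inwardly rectifying potassium channels that take up potassium released by firing neurons, vascular mural cells for channels that sense ATP, and some immune and tumor cells for a calcium-activated potassium channel.

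Total counts ran from 3105119 to 13130158 per sample and were lowest in naïve brain (3105119 to 5161132). There 3 counts amounted to between 0.581 and 0.966 counts per 1000000 (CPM) of unscaled library size, whereas the CPM values below use library sizes scaled between samples. At an equal level, counting error was therefore largest in the group all tumors were compared with. The summed counts of the members were nonetheless higher in naïve brain (9574 to 14829 per sample) than in CT2A (1748 to 5524) or Mut3 (3148 to 4667). The mitochondrial share of counts was 14.97 to 24.0% in naïve brain, 17.8% in the 005 tumor replicate 3, 11.3% in GL261 replicate 2 and 7.59% or less elsewhere. The 005 replicate 3 stood apart from its group. Its 10 neuron markers summed to 3962 CPM, against 667 and 239 in the other 005 tumors and 4375 to 6766 in naïve brain. Its 4 proliferation markers summed to 107 CPM, against 945 and 995 in the other 005 tumors and 23.3 to 37.9 in naïve brain. The main counts for 005 are given with and without this sample.

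The DNA just upstream of 4 members is printed because these genes stand for the patterns described below. Scn2b was lower in CT2A and Mut3, and Kcne4 was higher in Mut3 alone among the lines. Kcnj10 was higher in Mut3 than in the other tumors, and Kcnn4 was higher in CT2A and 005. All are on the plus strand of GRCm38.p6 and come from the RefSeq promoter table, ending 1 base before the more upstream of the RefSeq and GENCODE gene starts. The stretches are chr9:45117632-45117781 for Scn2b, chr1:78816661-78816757 for Kcne4, chr1:172341060-172341209 for Kcnj10 and chr7:24370113-24370262 for Kcnn4. Capitals mark a GC box (GGGCGG on either strand).
Scn2b: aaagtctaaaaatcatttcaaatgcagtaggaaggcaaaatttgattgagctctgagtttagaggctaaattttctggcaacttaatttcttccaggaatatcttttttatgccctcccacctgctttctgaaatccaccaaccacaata
Kcne4: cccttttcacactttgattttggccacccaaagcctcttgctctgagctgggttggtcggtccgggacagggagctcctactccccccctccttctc
Kcnj10: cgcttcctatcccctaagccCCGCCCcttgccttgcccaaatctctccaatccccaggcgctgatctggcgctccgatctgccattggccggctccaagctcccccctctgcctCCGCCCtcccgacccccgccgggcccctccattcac
Kcnn4: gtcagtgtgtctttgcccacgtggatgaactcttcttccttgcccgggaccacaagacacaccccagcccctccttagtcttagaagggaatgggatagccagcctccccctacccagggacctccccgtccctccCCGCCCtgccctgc

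The Scn2b stretch had a G and C content of 36.0% and no CpG, whereas that of Kcnj10 had 68.7% and 10 CpG dinucleotides with 2 GC boxes. Kcnn4 had 1 GC box in this stretch, Kcne4 had none, and no TATA box (TATAAA on either strand) was found in any of the 4. For Scn2b and Kcne4 the RefSeq start lay 94 and 153 bases after the GENCODE start. Their printed stretches therefore leave out the bases next to the RefSeq start, where a TATA box would not have been seen. Over the 250 bases upstream of the start, 99 of the 134 members matched RefSeq with 135 promoter windows, and 57 of these windows (42.2%) held a GC box, against 32.7% of all 32851 windows. A TATA box was present in 5 member windows (3.70%) and in 12.4% of all windows. Windows of members lower in both CT2A and Mut3 held a GC box in 41.4% and those of the other members in 43.1%. These are counts of letters in a window, and windows of a gene with several starts can overlap.

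Most channel genes were lower in the tumors than in naïve brain, by a median that differed widely between the lines. A gene counted as lower or higher where edgeR's quasi-likelihood test gave it an adjusted p under 0.05 and its log2 fold change was 1 or more in size. In CT2A, 74 of the 102 tested members were lower, where 20.2% of all 17481 tested genes were lower, and 2 were higher, where 19.0% of all genes were. In Mut3, 71 were lower against 19.8% of all genes, and 3 were higher against 17.9%. In GL261, 13 were lower against 7.77% of all genes, and 1 was higher against 14.6%. In 005, 0 members were lower against 1.05% of all genes, and 2 were higher against 11.6%. The count of 0 in 005 rested on replicate 3. In edgeR 19 members were lower in 005 at an unadjusted p under 0.05, 88 had a log2 fold change below 0, and DESeq2 called 11 and limma on log2(TPM + 1) 36. For these counts the share of all genes is not given here. Without 005 replicate 3, 68 of 106 tested members were lower in 005, against 18.1% of all genes. In the same fit 79 were lower in CT2A (22.2% of all genes), 47 in GL261 (14.9%) and 75 in Mut3 (20.9%). Other single samples also moved these counts. Without CT2A replicate 2 or 3 the count lower in CT2A was 42, and without naïve brain replicate 2 it was 48. For GL261 it was between 3 and 8 without GL261 replicate 1 or 3 or any of the naïve brains, and 29 without 005 replicate 2.

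The median log2 fold change of the tested members was −4.08 in Mut3 and −3.13 in CT2A, against −1.72 in GL261 and −1.38 in 005, and without 005 replicate 3 that of 005 was −2.90. Over all tested genes the medians were 0.11, −0.04, −0.08 and 0.01 in that order. Scaling by library size in place of TMM, edgeR's default trimmed mean, put the all-gene median of CT2A at −0.24, and leaving the mitochondrial genes out of the counts put it at 0.14 in CT2A and at 0.28 in Mut3, shifts that are small beside those of the members.

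**Figure D1:**
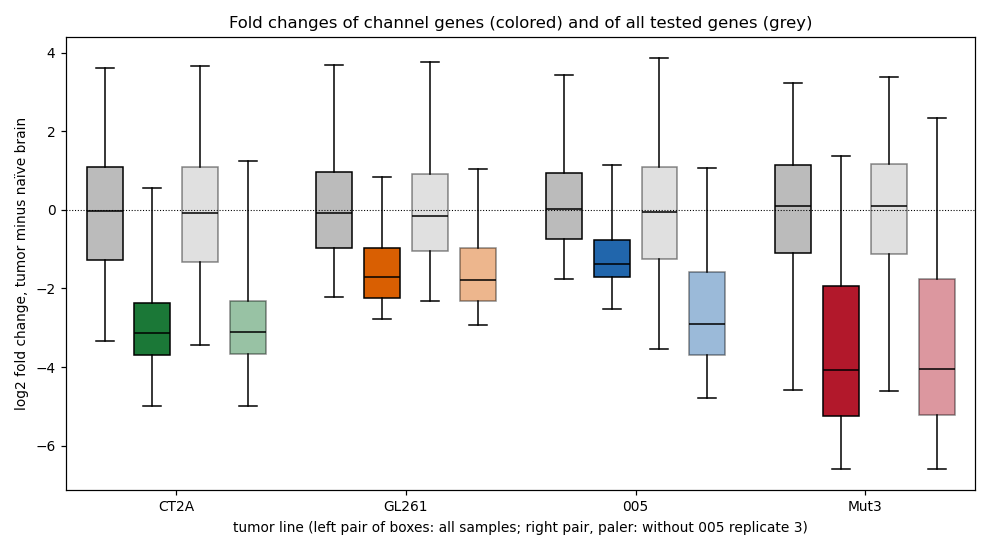
Log2 fold change of each line over naïve brain (vertical axis) for all tested genes (grey boxes) and for the tested channel genes (colored boxes), with boxes at the quartiles, a line at the median and whiskers at the 5th and 95th percentiles. The left pair of each line uses all samples and the paler right pair leaves out 005 replicate 3: the channel medians lie at −3.13, −1.72, −1.38 and −4.08 from CT2A to Mut3, and that of 005 falls to −2.90 in the right pair.

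The drop in channel genes went with a drop in neuron markers. Summed over the 134 members, naïve brains measured 2590 to 3693 CPM, CT2A 251 to 675, GL261 645 to 1175, Mut3 397 to 418, and the 005 tumors 563, 364 and 2717. The 10 neuron markers (Rbfox3, Snap25, Syt1, Stmn2, Slc17a7, Gad1, Gad2, Nefl, Nefm and Tubb3) summed to 4375 to 6766 CPM in naïve brain, 273 to 1219 in CT2A, 985 to 1981 in GL261, 239 to 3962 in 005 and 63.3 to 157 in Mut3, and none was at 0 in every library of a group. All 10 were lower in CT2A and in Mut3 and none was called in GL261 or 005, with median log2 fold changes of −2.95, −2.05, −1.66 and −5.68 in the order CT2A, GL261, 005 and Mut3. Without 005 replicate 3, all 10 were lower in 005 (median −3.48) and 8 in GL261 (−2.12). The part of the neuron markers in the results on channel genes was not tested.

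**Figure D2:**
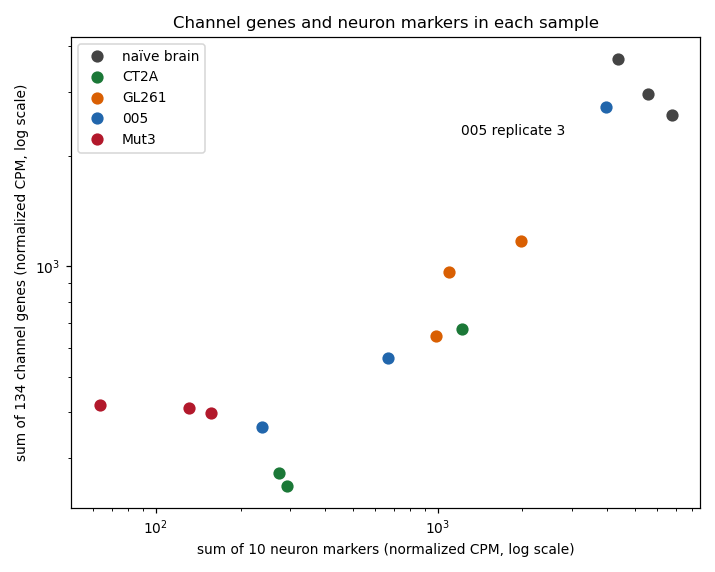
Sum of the 10 neuron markers (horizontal axis, CPM, log scale) and of the 134 channel genes (vertical axis, CPM, log scale), with 1 point for each sample, colored by group. 005 replicate 3 lies next to the naïve brains at 3962 and 2717 CPM, and the Mut3 tumors lie farthest to the left, at 63.3 to 157 CPM of neuron markers, with 397 to 418 CPM of channel genes.

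No member was lower in all 4 lines with all samples in the fit (0 of 102, against 0.503% of all genes). In edgeR 13 members were lower in all lines at an unadjusted p under 0.05, and DESeq2 called 8 and limma 35. The matching shares of all genes are not given here either. In 62 members expression was lower in both CT2A and Mut3, against 13.8% of all genes. It was lower in CT2A and not in Mut3 in 12 (6.49% of all genes) and in Mut3 and not in CT2A in 9 (6.08%). Of the 62, 005 replicate 3 was the highest of the 12 tumors in 58 and at or above the lowest naïve brain in 41, with no share of all genes to set beside these counts. Without that sample 39 of 106 members were lower in all 4 lines, against 8.83% of all genes. By levels alone, all 12 tumors lay below all 3 naïve brains in 25 members, against 7.02% of all genes, and the 11 tumors other than 005 replicate 3 did so in 59, against 15.1%. Of the 102, 83 were lower in 1 to 3 lines, 14 were called in none (43.6% of all genes were) and 5 were higher in at least 1 line and lower in none (28.6% of all genes were). The 10 members lower in CT2A, GL261 and Mut3 together (4.59% of all genes were) were Cacna1a, Cacna1e, Cacna1g, Cacna2d1, Cacnb3, Kcnab2, Kcnj2, Kcnv1, Scn2a and Scn3b.

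**Figure D3:**
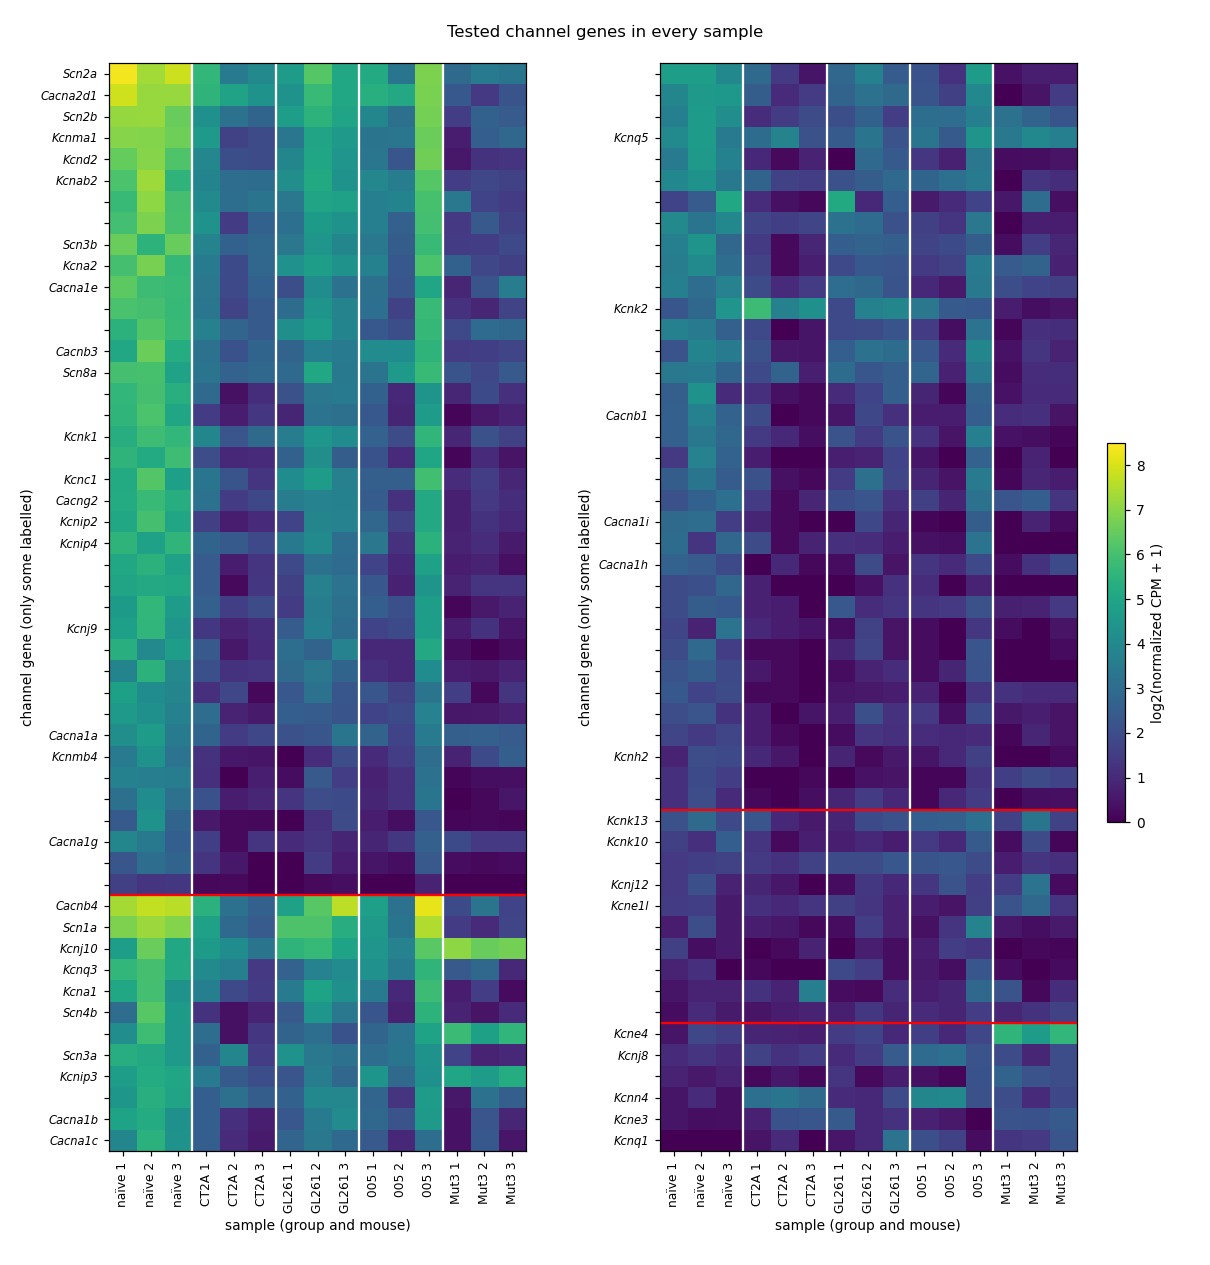
Normalized CPM of the 102 tested channel genes (rows, with some labelled, as log2 of CPM + 1 by color) in each of the 15 samples (columns, groups parted by white lines). Red lines part, from the top, the 39 genes lower in all 4 lines without 005 replicate 3, the 47 lower in 1 to 3 lines, the 10 called in none and the 6 higher in at least 1, each ordered by naïve brain level; the 005 replicate 3 column resembles naïve brain.

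Most sodium channel genes were lower in CT2A and Mut3. Of 10 tested genes, 9 were lower in CT2A and 9 in Mut3, against 2 in GL261, and in 005 the count was 0, or 9 without its replicate 3. Per length, their summed level was 67.5 ± 30.1 TPM (SD, n = 3) in naïve brain, 1.14 ± 0.209 in Mut3, 3.21 ± 2.41 in CT2A, 10.9 ± 3.65 in GL261 and 18.4 ± 25.8 in 005, or 3.56 ± 0.929 (n = 2) in 005 without replicate 3. Scn2a, a pore-forming subunit of excitatory neurons on chromosome 2 (65620771 to 65767447, GRCm38), measured 329, 159 and 231 CPM in the naïve brains and 48.1, 10.2 and 14.98 in CT2A. It measured 24.5, 76.1 and 33.6 CPM in GL261, 35.5, 8.93 and 112 in 005 and 6.60, 10.1 and 8.97 in Mut3. Every tumor, 005 replicate 3 included, lay below every naïve brain. The log2 fold change of Scn2a was −3.29 ± 0.79 (SE) in CT2A (adjusted p = 0.00579), −2.42 ± 0.76 in GL261 (0.0348), −2.19 ± 0.75 in 005 (0.0692, or 0.00281 without replicate 3) and −4.81 ± 0.85 in Mut3 (0.000948). Its GL261 call was lost without any single naïve brain, GL261 replicate 1 or 3, or Mut3 replicate 1 or 3, with adjusted p up to 0.156.

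Scn1a, the pore subunit known for its role in inhibitory interneurons, measured 111, 149 and 120 CPM in naïve brain, 27.8, 6.52 and 4.39 in CT2A, 69.6, 68.5 and 38.1 in GL261, 22.7, 8.81 and 179 in 005 and 1.79, 1.01 and 2.46 in Mut3. Mut3 lay below all other tumors, and 005 replicate 3 lay above all naïve brains. Scn1a fell (log2 fold change −3.29 in CT2A and −6.14 in Mut3), and its log2 fold change was −1.11 ± 0.84 in GL261 (adjusted p = 0.335) and −0.85 ± 0.84 in 005 (0.495), or −3.08 ± 0.70 in 005 without replicate 3 (0.00367). Its CT2A call was lost without CT2A replicate 2 (adjusted p = 0.0585) or 3 (0.0520). Scn8a, the pore subunit of axon initial segments and nodes of Ranvier, fell (log2 fold change −2.94 in CT2A and −3.92 in Mut3), and Scn3a, which is most active before birth, fell as well (−2.19 and −4.58). The Scn3a call in CT2A was lost without CT2A replicate 3 (adjusted p = 0.0550), and Scn8a was also lower in GL261 without GL261 replicate 2 or 005 replicate 1 or 3 (0.0158 to 0.0419). Scn9a, a pore subunit of sensory neurons, had single high samples, with 34.6 CPM in GL261 replicate 1 and 32.2 in naïve brain replicate 3 against at most 7.30 elsewhere, and was chosen for mention after its values were seen. Of the pore-forming genes of skeletal muscle and sensory neurons, Scn4a, Scn10a and Scn11a were too low to be tested.

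The sodium channel beta subunits, single-pass membrane proteins that act as cell adhesion molecules and speed up gating, were all lower in CT2A and Mut3. Per length, Scn2b was among the 5 highest members in naïve brain (13.2 ± 5.76 TPM). Scn2b, whose upstream bases are printed above, measured 141, 143 and 90.6 CPM in naïve brain, 18.2, 7.92 and 5.68 in CT2A, 25.7, 44.3 and 30.3 in GL261, 13.9, 7.73 and 105 in 005 and 1.90, 5.28 and 4.40 in Mut3. Only 005 replicate 3 reached the naïve range. Its log2 fold change was −3.56 ± 0.81 in CT2A (adjusted p = 0.00451), −1.90 ± 0.75 in GL261 (0.0771), −1.57 ± 0.74 in 005 (0.165) and −5.01 ± 0.87 in Mut3 (0.000859). Without 005 replicate 3, the value of Scn2b in 005 was −3.60 ± 0.57 (0.000352) and that in GL261 passed as well (0.00467), as it did without 005 replicate 2 (0.0366). Scn3b fell (log2 fold change −3.21 in CT2A, −2.38 in GL261 and −5.15 in Mut3), the GL261 call being lost without GL261 replicate 1 or 3 or naïve brain replicate 1 or 3 (adjusted p up to 0.122). Scn4b was uneven in naïve brain (7.14, 77.2 and 24.1 CPM) and fell (log2 fold change −5.42 in CT2A and −5.55 in Mut3).

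Calcium channel genes fell in 15 of 21 tested members in CT2A and in 15 in Mut3, against 6 in GL261, and in 005 the count was 0, or 15 without its replicate 3. Among the pore-forming alpha1 subunits, 7 of 8 were lower in CT2A, 6 in Mut3 and 3 in GL261. Cacna1e, which carries the R-type current, measured 81.4, 55.5 and 51.6 CPM in naïve brain, 9.40, 2.64 and 5.30 in CT2A, 3.11, 16.5 and 8.01 in GL261, 7.83, 3.86 and 31.5 in 005 and 0.895, 3.65 and 10.99 in Mut3. All tumors lay below all naïve brains. Its log2 fold change was −3.43 ± 0.90 in CT2A (adjusted p = 0.00898), −2.76 ± 0.88 in GL261 (0.0357), −2.12 ± 0.85 in 005 (0.110, or 0.00767 without replicate 3) and −3.58 ± 0.91 in Mut3 (0.00669). Cacna1a, the P/Q-type pore subunit of presynaptic terminals, fell (log2 fold change −2.37 in CT2A, −1.71 in GL261 and −1.88 in Mut3), and the difference among lines did not pass the test (adjusted p = 0.638). Cacna1b, the N-type subunit, fell (log2 fold change −3.62 in CT2A and −4.08 in Mut3), and Cacna1c, an L-type subunit also used in muscle, did so too (−3.54 and −3.997). The T-type subunit Cacna1g fell in CT2A, GL261 and Mut3 (−2.99, −3.09 and −2.23), and Cacna1h in CT2A (−3.58). Calls in GL261 were fragile here, since those of Cacna1a, Cacna1e and Cacna1g were lost without GL261 replicate 1 (adjusted p = 0.195, 0.155 and 0.0649) and without naïve brain replicate 1. The Cacna1a call in GL261 was also lost without naïve brain replicate 2, CT2A replicate 2 or 3, GL261 replicate 2, 005 replicate 1 or any single Mut3 tumor. That of Cacna1e was also lost without naïve brain replicate 2 or 3, and both Cacna1e and Cacna1g lost it without GL261 replicate 3. The calls of Cacna1a and Cacna1g in Mut3 were lost without naïve brain replicate 2 or without Mut3 replicate 2 or 3, and further without Mut3 replicate 1 for Cacna1a and naïve brain replicate 1 for Cacna1g. The call of Cacna1h in CT2A was lost without CT2A replicate 1 or 3 (adjusted p = 0.0739 and 0.0978) or naïve brain replicate 1 or 2. That of Cacna1c in CT2A was lost without naïve brain replicate 2 (0.0547) or CT2A replicate 2, whereas its Mut3 call held whichever sample was left out.

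Cacna2d1, an alpha2delta subunit that brings calcium channels to the membrane and binds gabapentin, measured 234, 146 and 146 CPM in naïve brain, 44.9, 28.6 and 19.8 in CT2A, 19.5, 53.2 and 32.4 in GL261, 39.0, 34.4 and 111 in 005 and 4.03, 1.64 and 3.61 in Mut3. Mut3 lay below every other tumor and every tumor below naïve brain. Its log2 fold change was −2.49 ± 0.52 in CT2A (adjusted p = 0.00308), −2.32 ± 0.52 in GL261 (0.00723), −1.51 ± 0.51 in 005 (0.0634, or 0.00225 without replicate 3) and −5.81 ± 0.62 in Mut3 (6.72e-05). Cacna2d4, a retinal alpha2delta subunit, stood at 5.59, 3.52 and 2.99 CPM in Mut3 and at most at 0.816 in naïve brain, and was called higher in Mut3 only without 005 replicate 3 (log2 fold change 2.46 ± 0.77, adjusted p = 0.0181).

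Of the beta subunits, which bind the pore subunit inside the cell, Cacnb3 measured 33.3, 94.4 and 37.3 CPM in naïve brain, 7.94, 3.42 and 5.68 in CT2A, 5.60, 11.6 and 10.2 in GL261, 16.3, 16.5 and 45.2 in 005 and 1.79, 2.01 and 2.46 in Mut3. It was the only differing member whose 005 tumors all lay above every other tumor. Cacnb4 measured 162, 208 and 195 CPM in naïve brain and 28.0, 77.4 and 201 in GL261, and 005 replicate 3 reached 291, the highest of all samples. It fell (log2 fold change −3.33 in CT2A and −5.38 in Mut3), and the CT2A call was lost without CT2A replicate 2 or 3 (adjusted p = 0.116 and 0.107) or any of the naïve brains. Cacnb1 was called in no line (log2 fold changes −3.07 to −1.90, smallest adjusted p 0.0502), although all tumors lay below all naïve brains. Cacnb1 was lower in Mut3 without any single CT2A or 005 tumor (adjusted p = 0.0198 to 0.0488), in CT2A without CT2A replicate 1 (0.00549), and in CT2A and 005 without 005 replicate 3 (0.0296 and 0.0327). Among the gamma subunits, which include the partners of AMPA receptors, Cacng2 (stargazin) fell (log2 fold change −3.35 in CT2A and −5.21 in Mut3), whereas Cacng4 fell in CT2A and GL261 and not in Mut3, as described below.

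Potassium channel genes fell in 50 of 71 tested members in CT2A and in 47 in Mut3, against 5 in GL261, and in 005 the count was 0, or 44 without its replicate 3. The alpha subunits of the Shaker, Shab, Shaw and Shal families (Kcna to Kcnd), which repolarize axons and dendrites, were lower in 13 of 14 tested members in CT2A and 11 in Mut3, with median log2 fold changes of −2.99 and −5.05, and in none in GL261 or 005. Without 005 replicate 3, 8 of the 14 were lower in all lines. Kcnd2, an A-type subunit of dendrites, fell (log2 fold change −3.78 in CT2A and −6.41 in Mut3), where it measured 0.448, 1.38 and 1.41 CPM against 70.8 to 122 in naïve brain. Kcna2 and Kcnc1, found in axons and in fast-spiking interneurons, fell (log2 fold changes −3.51 and −3.28 in CT2A and −4.49 and −5.13 in Mut3), and the Kcnc1 call in CT2A was lost without naïve brain replicate 2 or CT2A replicate 2 or 3 (adjusted p up to 0.0526). Kcna1 fell in Mut3 (log2 fold change −5.47) and missed the test in CT2A (log2 fold change −2.79 ± 1.09, adjusted p = 0.0518), which it passed without CT2A replicate 1 or 005 replicate 2 or 3 (0.0160 to 0.0255). Kcna3, the channel of T lymphocytes, held 2 counts in naïve brain and 0 in every tumor, so its level was not measurable at this depth. Of 5 tested T cell markers, Cd2, Cd3d, Cd3g and Cd8a were higher in CT2A, GL261 and 005, and Cd4 was lower in CT2A and Mut3.

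The electrically silent subunits, which form channels only together with Kcnb subunits, fell in 7 of 8 tested members in CT2A and in Mut3. Kcnv1 measured 45.9, 67.0 and 31.9 CPM in naïve brain, at most 1.83 in CT2A, 0.829, 8.40 and 7.76 in GL261, 4.12, 0.845 and 25.1 in 005 and at most 0.792 in Mut3. All tumors lay below all naïve brains. Kcns3 had no count in any Mut3 tumor and was at least 34.3-fold lower there than in naïve brain, taking 3 counts over the group as the floor. Kcnq3, a subunit of the M-current that holds back repeated firing, measured 48.3, 63.3 and 34.1 CPM in naïve brain, 15.9, 11.8 and 1.68 in CT2A, 5.39, 12.8 and 16.3 in GL261, 18.7, 10.02 and 45.8 in 005 and 4.14, 6.17 and 0.967 in Mut3, and fell (log2 fold change −2.31 in CT2A and −3.70 in Mut3). Its CT2A call was lost without CT2A replicate 2 or 3 (adjusted p = 0.0728 and 0.0831) or naïve brain replicate 1 or 2, and it was lower in GL261 without CT2A replicate 3 or 005 replicate 2 or 3 (0.0282 to 0.0486). Of the Kcnh family, 5 of 6 tested members were lower in CT2A and 5 in Mut3, and Kcnh2, the channel of cardiac repolarization, fell in Mut3 (log2 fold change −4.70) only.

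Of the auxiliary subunits, Kcnab2 (17.5 ± 15.3 TPM in naïve brain), which binds Shaker channels inside the cell, fell (log2 fold change −3.26 in CT2A, −1.90 in GL261 and −5.33 in Mut3). Its GL261 call was lost without naïve brain replicate 1 or 2 or without any single GL261 tumor (adjusted p up to 0.230), and also without CT2A replicate 2 or 3 or any single Mut3 tumor. Kcnip2 and Kcnip4, calcium sensors of the A-type channels, fell (log2 fold changes −5.04 and −3.20 in CT2A and −5.37 and −5.59 in Mut3). The large-conductance calcium-activated channel gene Kcnma1 measured 124, 120 and 96.8 CPM in naïve brain, 23.0, 2.17 and 2.97 in CT2A, 9.12, 30.2 and 22.6 in GL261, 8.76, 9.05 and 92.3 in 005 and 0.559, 4.78 and 6.24 in Mut3, with all tumors below all naïve brains. It fell (log2 fold change −3.59 in CT2A and −4.86 in Mut3), the former not without CT2A replicate 2 (adjusted p = 0.0714) or 3 (0.0682). Its neuronal beta subunit Kcnmb4 fell (log2 fold change −4.07 in CT2A and −3.11 in GL261). Among inward rectifiers, Kcnj9, a subunit of G protein-gated channels, fell (log2 fold change −4.71 in CT2A and −5.31 in Mut3), and Kcnj6, of the same kind, had no count in Mut3 and was at least 36.6-fold lower there. Of the tandem-pore leak channels, 2 of 7 tested members were lower in CT2A and 4 in Mut3, with median log2 fold changes of −1.79 and −4.52. Kcnk1 fell (log2 fold change −2.56 in CT2A and −4.52 in Mut3).

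**Figure D4:**
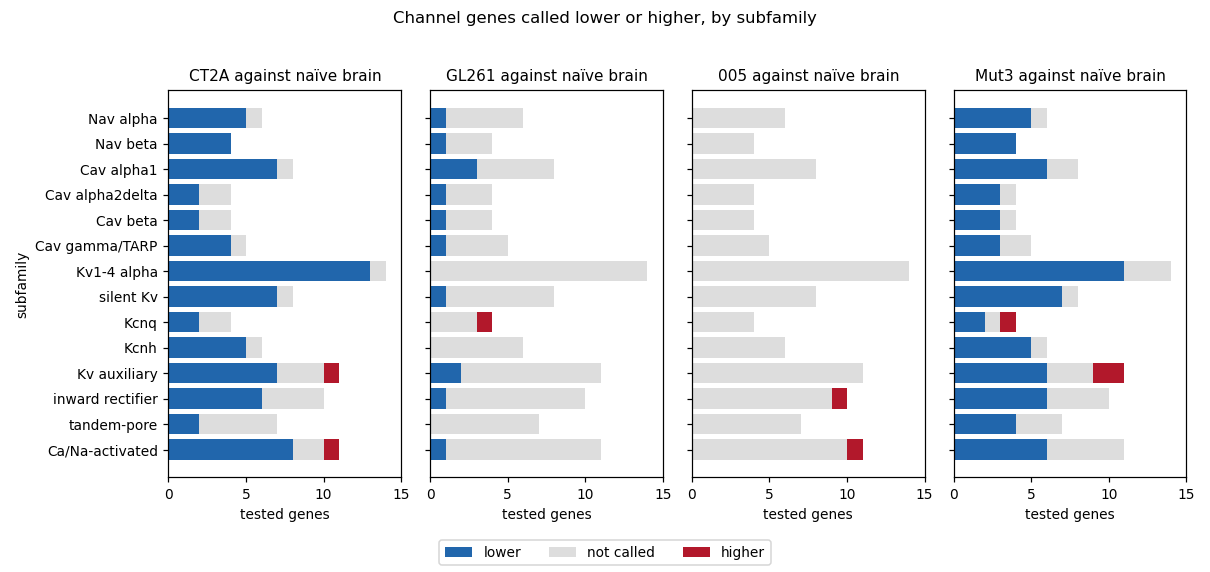
Number of tested channel genes (horizontal axis) in each subfamily (rows) that were lower than naïve brain (blue), higher (red) or not called (grey), in 1 panel for each line with all samples in the fit. Blue fills most bars in CT2A (74 of 102) and Mut3 (71). In GL261 (13) it takes 3 of 8 Cav alpha1 genes and at most 2 genes of any other bar. It is missing in 005 (0, or 68 of 106 without 005 replicate 3, which is not drawn).

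The members called in no line were mostly low in naïve brain, where the 8 highest of the 14 were Kcnj10, Cacnb1, Kcnq5, Kcnk13, Kcne1l, Kcnj12, Kcnk10 and Cacna1i. A missed call does not show an equal level. Kcnj10 is described below. Kcnq5, an M-type subunit, measured 15.9, 24.4 and 10.5 CPM in naïve brain, 7.08, 13.04 and 3.36 in CT2A, 4.35, 8.57 and 3.52 in GL261, 8.65, 4.35 and 20.2 in 005 and 9.85, 14.5 and 11.8 in Mut3, where its log2 fold change was −0.50 ± 0.58. In GL261 its log2 fold change was −1.63 ± 0.60 (adjusted p = 0.0602), which passed without 005 replicate 2 (0.0393) or 3 (0.0213). Kcnk13, a tandem-pore channel of microglia, measured 3.26, 6.73 and 2.70 CPM in naïve brain and 4.84, 5.07 and 7.55 in 005, with log2 fold changes from −1.26 to 0.46 over the lines, and it was lower in CT2A without CT2A replicate 1 (adjusted p = 0.0338). Microglia and macrophage markers summed to 136 to 180 CPM in naïve brain and 375 to 902 in 005. Of the 6, Aif1, Cd68 and Itgam were higher in 005, and Csf1r, Tmem119 and P2ry12 were not called. Without 005 replicate 3, 1 of the 6 was lower in 005 and 3 were higher. The part of these markers in the Kcnk13 values was not tested. Cacna1i, a T-type subunit, had log2 fold changes of −3.87 ± 1.63 in CT2A (adjusted p = 0.0692) and −4.08 ± 1.64 in Mut3 (0.0597), and both passed without 005 replicate 2 or 3, the latter fit also calling it lower in 005 (0.0152). Kcne1l, Kcnj12 and Kcnk10 were at most at 8.43 CPM in any sample, and Kcnk10 was lower in Mut3 without Mut3 replicate 2 (adjusted p = 0.0173).

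Higher in at least 1 line and lower in none were Kcne4, Kcnn4, Kcne3, Kcnj8 and Kcnq1. Kcne4, a small membrane protein that inhibits several voltage-gated potassium channels, measured 0.408, 2.49 and 1.89 CPM in naïve brain and 46.5, 24.8 and 48.5 in Mut3. In the other 9 tumors it lay between 0.646 and 2.49 CPM, the range of naïve brain. Its log2 fold change in Mut3 was 4.66 ± 0.59 (adjusted p = 0.000178), and the difference among lines had an adjusted p of 9.9e-06, the smallest of the members. Per length it was the highest channel gene of Mut3 (4.78 ± 1.51 TPM). Kcnn4, a calcium-activated potassium channel of lymphocytes, microglia and many tumor cells, measured 0.408, 0.996 and 0.270 CPM in naïve brain, 7.69, 8.85 and 6.72 in CT2A, 14.1, 14.6 and 3.28 in 005, 1.04, 0.970 and 2.91 in GL261 and 3.02, 1.01 and 2.55 in Mut3. All CT2A and 005 tumors exceeded all naïve brains, with log2 fold changes of 3.76 ± 0.76 (adjusted p = 0.00243) and 4.22 ± 0.76 (0.00306). Its log2 fold change was 1.57 ± 0.77 in GL261 (adjusted p = 0.142) and 1.95 ± 0.76 in Mut3 (0.0520), and the latter passed without naïve brain replicate 2, GL261 replicate 3, 005 replicate 3 or Mut3 replicate 2 (0.0250 to 0.0443). The part of the T cell markers given above in the Kcnn4 levels was not tested.

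Kcne3, an accessory subunit best known from epithelia, was at most 0.408 CPM in naïve brain and 3.47, 3.40 and 4.31 in Mut3, where it rose by 3.50 ± 1.05 (log2, adjusted p = 0.0165), and it measured 0.733, 3.42 and 3.88 in CT2A (3.02 ± 1.05, adjusted p = 0.0329). The CT2A call was lost without any single naïve brain or CT2A replicate 2 or 3 (adjusted p up to 0.0981), and the Mut3 call without naïve brain replicate 3 (0.0503). Kcnj8, the ATP-sensitive pore subunit of pericytes, measured 1.02, 1.49 and 1.08 CPM in naïve brain and 6.80, 7.61 and 3.49 in 005 (log2 fold change 2.30 ± 0.65, adjusted p = 0.0307). The call was lost without any single naïve brain and without 005 replicate 1 or 2 (adjusted p up to 0.115). Its sulfonylurea receptor partner Abcc9 was higher in 005 too, at 8.14, 8.09 and 2.63 CPM against 1.00 to 2.45 in naïve brain. The 6 mural cell markers summed to 72.6 to 97.9 CPM in naïve brain and 95.9 to 191 in 005, with none of the 4 tested called, and their part in these levels was not tested. Kcnq1, a potassium channel of heart and epithelia, had no count in naïve brain and was higher in GL261 and Mut3, by at least 17.03-fold and 10.1-fold, taking 3 counts over the naïve group as the floor. In CT2A and 005, where it was not called, the same bounds were 1.88-fold and 6.83-fold, and it passed in 005 without replicate 3 (adjusted p = 0.0198). The GL261 value came mostly from replicate 3 (8.49 CPM, against 0.415 and 0.970), without which its call was lost (adjusted p = 0.127). Its calls in GL261 and Mut3 were also lost without any single naïve brain, and that in Mut3 without Mut3 replicate 3 (0.0669). Kcnq1ot1, the antisense RNA that overlaps Kcnq1, was at a mean of 48.0 CPM in naïve brain and 73.7 in the tumors, and whether reads were counted by strand is not given in the sources used here, so both cannot be told apart. Without 005 replicate 3, Kcnj15 entered the test as well, through the tumors alone, since it had 0 counts in naïve brain. It was called higher in all lines at 0.336 to 2.07 CPM in the tumors. The lowest of these values lie below the level of 3 counts in a naïve brain, so the call is no firm sign of a gain.

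The lines differed from each other in 43 of 102 members (F test across the lines, adjusted p under 0.05, no fold threshold), against 26.8% of all genes. The lowest mean was in Mut3 for 32 of the 43 (44.9% of all differing genes), in CT2A for 10 and in GL261 for 1. The highest was in 005 for 31 (30.8% of all differing genes), in Mut3 for 6, in GL261 for 5 and in CT2A for 1, but this order rested on 005 replicate 3, which was above both other 005 tumors in 91 of the 102 tested members. With that sample left out of the means, the highest of the same 43 was in GL261 for 30 (30.02% of all differing genes), in 005 and Mut3 for 6 each and in CT2A for 1, and the lowest was in Mut3 for 32. The count was 54 without 005 replicate 3, 62 without 005 replicate 2, and between 21 and 24 without any single Mut3 tumor. In 15 of the 43 the Mut3 tumors all lay below every other tumor, and in 4 (Kcne4, Kcnh4, Kcnip3 and Kcnj10) above. The shares of all genes are not given for these counts or for that of 91, so they describe the members only. All 3 GL261 tumors lay above the rest for Kcnt1, those of 005 for Cacnb3, and those of CT2A below the rest for Kcne4.

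Kcnj10, the inward rectifier of astrocytes and oligodendrocytes that clears extracellular potassium, was at its highest in Mut3 and was not lower there than in naïve brain. It measured 26.3, 93.2 and 33.0 CPM in naïve brain, 24.1, 16.6 and 8.65 in CT2A, 44.8, 50.8 and 29.7 in GL261, 20.5, 12.7 and 79.4 in 005 and 132, 91.3 and 105 in Mut3. Naïve brain replicate 2 overlapped the Mut3 range and the other naïve brains did not. The difference among lines had an adjusted p of 0.0259, and against naïve brain the log2 fold change in Mut3 was 1.11 ± 0.62 (adjusted p = 0.168), or 2.05 without naïve brain replicate 2 (0.0264). In CT2A the log2 fold change of Kcnj10 was −1.63 ± 0.63 (0.0513), and it was called lower there without naïve brain replicate 1, CT2A replicate 1 or 005 replicate 2 or 3 (0.0100 to 0.0472), and in 005 without replicate 3 (0.0244). Its partner subunit in glia, Kcnj16, went the other way in Mut3, at 0, 0.629 and 0.616 CPM against 8.72 to 14.9 in naïve brain. Astrocyte markers summed to 215 to 520 CPM in Mut3 and 1150 to 1631 in naïve brain. Of the 6, Aqp4, Slc1a2 and Gja1 were lower in Mut3, Gfap was higher, and Aldh1l1 and Slc1a3 were not called. Oligodendrocyte progenitor markers (Pdgfra, Cspg4, Olig2 and Sox10) summed to 222 to 484 CPM in Mut3, the highest of the 5 groups, and 34.9 to 70.0 in naïve brain. Of the 4, Cspg4 and Olig2 were higher in Mut3, and Pdgfra and Sox10 were not called. Their part in these levels was not tested.

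Kcnip3, a calcium sensor of A-type channels that also binds DNA, measured 25.3, 36.6 and 31.6 CPM in naïve brain and 31.5, 24.2 and 37.0 in Mut3, while the other tumors lay between 3.10 and 20.1. It fell (log2 fold change −2.38 in CT2A and −2.15 in GL261), where the call was lost without GL261 replicate 1 (adjusted p = 0.0789), and its log2 fold change in Mut3 was −0.01 ± 0.50. Cacng4, a gamma subunit that assists AMPA receptors, measured 16.9, 57.0 and 22.7 CPM in naïve brain, 7.21, 0.310 and 1.55 in CT2A, 5.60, 7.43 and 3.40 in GL261, 5.87, 8.33 and 29.5 in 005 and 54.9, 27.4 and 46.9 in Mut3, and was chosen for mention after its values were seen. It differed among the lines (adjusted p = 0.0115), with a log2 fold change of 0.42 ± 0.77 in Mut3. Together with Kcne4 and Kcnj10, Kcnip3 and Cacng4 were the 4 highest members of Mut3 per length, with 14.2, 13.5, 13.2 and 10.9% of the members' summed 33.6 TPM, none of them among the 6 highest in naïve brain.

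Kcnk2, a tandem-pore channel opened by stretch and fatty acids, set CT2A and Mut3 apart. It measured 3.88, 6.23 and 20.6 CPM in naïve brain, 56.4, 12.4 and 18.3 in CT2A, 2.69, 12.3 and 14.1 in GL261, 9.37, 4.35 and 4.06 in 005 and 0.559, 0.252 and 0.352 in Mut3. It fell in Mut3 (log2 fold change −4.65, adjusted p = 0.00142), had a log2 fold change of 1.52 ± 0.72 in CT2A (0.103, or 0.0262 without naïve brain replicate 3), and differed among the lines (0.00164). Per length it was the highest member of CT2A, with 15.5% of the members' summed 25.9 TPM. Scn1a, Kcnab2 and Kcnj9 also differed among the lines (adjusted p = 0.00619, 0.00525 and 0.00925), with their lowest means in Mut3.

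**Figure D5:**
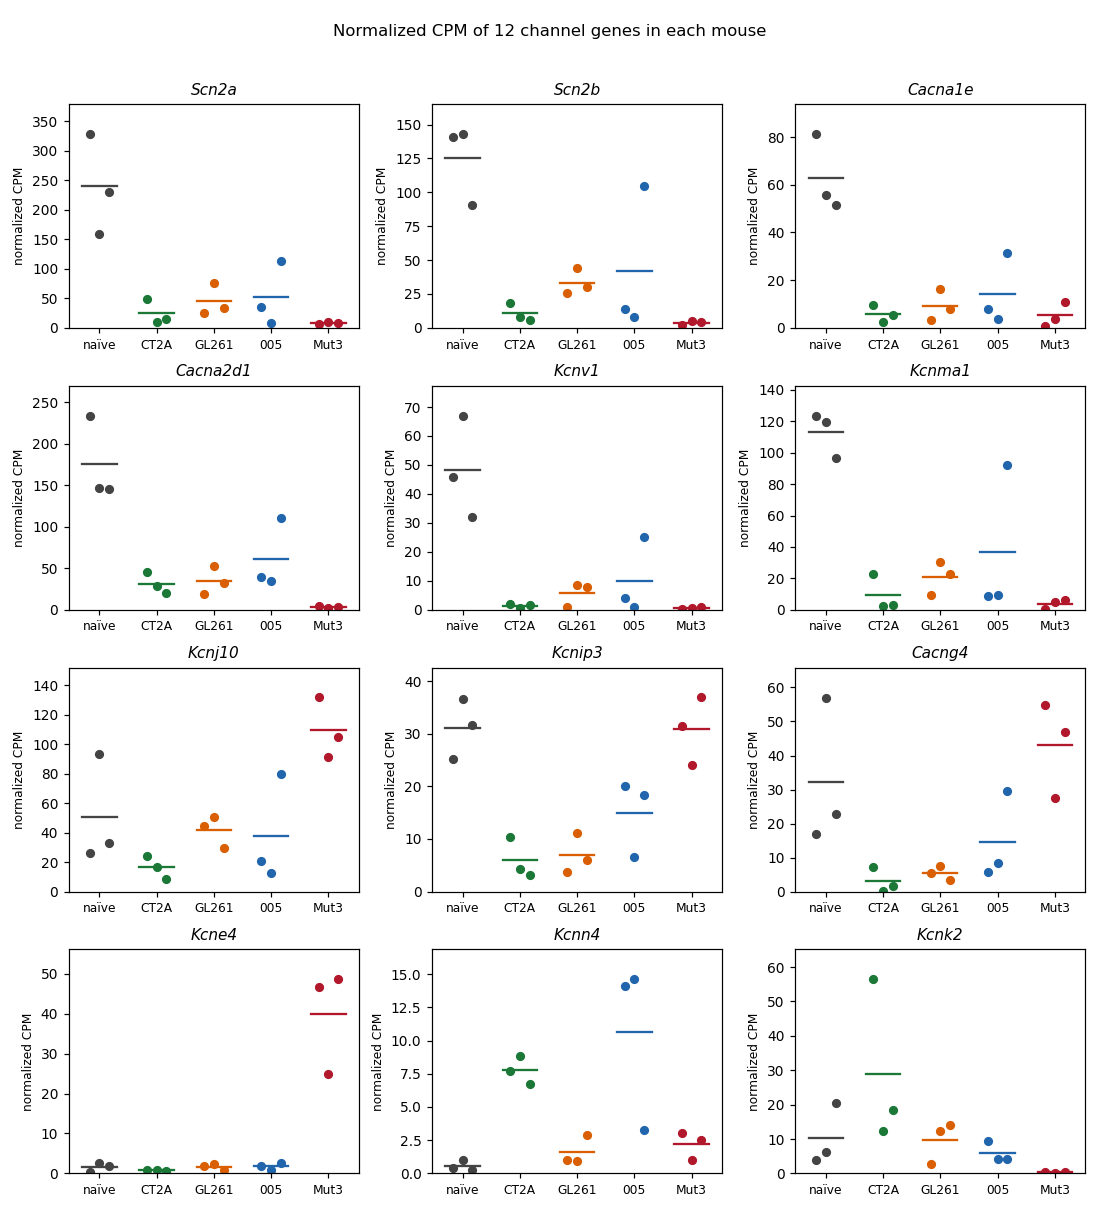
Normalized CPM (vertical axes, each from 0 with its own range) of 12 channel genes in each mouse, with points for mice and a bar for the group mean. Scn2a, Scn2b, Cacna1e, Cacna2d1, Kcnv1 and Kcnma1 are low in all tumors other than 005 replicate 3, Kcnj10, Kcnip3 and Cacng4 are kept in Mut3, Kcne4 is at 24.8 to 48.5 CPM in Mut3 and at most 2.49 elsewhere, and Kcnn4 is highest in 005 and CT2A.

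Genes that place, modulate or work beside the channels were read from a list of 36, of which 33 were tested. In CT2A, 24 were lower and 2 higher, in GL261 2 and 1, in 005 0 and 2, and in Mut3 26 and 1, and without 005 replicate 3 the lower counts were 28, 19, 24 and 27. The shares of all genes called lower are those given above, 20.2, 7.77, 1.05 and 19.8% with all samples and 22.2, 14.9, 18.1 and 20.9% without 005 replicate 3, and 19.0, 14.6, 11.6 and 17.9% were higher with all samples. Ank3, the anchor of sodium channels at the axon initial segment, measured 153, 129 and 147 CPM in naïve brain, 43.0, 11.8 and 18.5 in CT2A, 33.0, 51.9 and 33.4 in GL261, 32.5, 45.03 and 110 in 005 and 3.36, 6.79 and 4.31 in Mut3, and all tumors lay below all naïve brains. Lgi1, a secreted partner of Kcna channels, was called in no line and lay between 32.2 and 59.1 CPM in all samples. Gem, which holds calcium channels back from the membrane, was higher in CT2A (log2 fold change 2.26 ± 0.70, adjusted p = 0.0190). Rest, the repressor of neuronal genes, among them sodium channel genes, was the only gene of the list higher in all 4 lines. It measured 5.92, 8.47 and 4.06 CPM in naïve brain, 57.6, 88.3 and 82.0 in CT2A, 34.4, 30.7 and 38.3 in GL261, 41.4, 64.7 and 14.7 in 005 and 56.8, 28.3 and 42.6 in Mut3, so that every tumor exceeded every naïve brain, and its log2 fold changes were 3.62 ± 0.50, 2.48 ± 0.48, 2.70 ± 0.48 and 2.79 ± 0.48 (adjusted p = 0.000325, 0.00293, 0.00290 and 0.000844). The share of all genes higher in all 4 lines is not given here, and the part of Rest in the channel gene levels was not tested.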

How the data were processed

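Per the labels and the study's methods, total RNA of whole tissue was sequenced, and the authors aligned reads with STAR v2.4.2a to the GENCODE mouse genome and used Picard tools and RNA-SeQC. The submitters' processing notes also name Salmon, DESeq2 1.18.1 and mm10. The deposited expected counts carry no scaling between samples, and the deposited TPM values are scaled by gene length and to a fixed total. Over 4644 well-covered genes the ratio of both tables was the product of a gene and a sample term, so they are not independent.

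Symbols and coordinates came from GENCODE M21 (GRCm38), which held 46201 of the 46679 gene IDs. Expected counts were rounded and then fitted by edgeR 4.0.16 in R 4.3.3 (filterByExpr, TMM, quasi-likelihood F test, all 15 samples, a mean per group, Benjamini-Hochberg over all tested genes), a step checked on simulated counts. CPM values are counts per 1000000 of TMM-scaled library size, and SD values are over 3 mice. limma 3.58.1, DESeq2 1.42.0, other scalings and filters, a replicate block and leaving out each sample were the alternatives, and leaving out mitochondrial genes was added after seeing the data. Same-numbered samples in different groups did not deviate together.

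The members and lists were chosen with earlier results of these data known. Genes named were those higher in a line and lower in none, the 8 highest in naïve brain of those called in none, the 8 with the smallest p among lines, and a fixed list. All other members named were chosen after their values were seen. Reads shared by near-identical or overlapping genes could be split between them. Some of these genes are not reported here.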

Additional observations from a re-analysis of the deposited data

Results flagged for a closer look

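The difference among the 4 tumor lines, tested in a single F test with edgeR, was passed by 43 of the 102 tested channel genes, where 26.8% of all tested genes passed. Of the genes named by rule, the sodium channel genes that passed were Scn1a (adjusted p = 0.00619), Scn3a (0.0149), Scn8a (0.0134), Scn2b (0.0186), Scn3b (0.0202) and Scn4b (0.0219). All of these had their lowest mean in Mut3. The calcium channel genes were Cacna2d1 (0.00102), Cacnb3 (0.00144), Cacnb4 (0.0299) and Cacng2 (0.0328), also lowest in Mut3. The voltage-gated potassium channel genes and their auxiliary subunits were Kcna1 (0.0351), Kcna2 (0.0265), Kcnc1 (0.0172), Kcnd2 (0.0135), Kcnab2 (0.00525), Kcnip3 (0.00882), Kcnip4 (0.0107) and Kcne4 (9.9e-06), of which Kcnip3 and Kcne4 were highest in Mut3. The other potassium channel genes were Kcnj9 (0.00925), Kcnj10 (0.0259), Kcnk2 (0.00164) and Kcnn4 (0.0133). Among members chosen after their values were seen, Cacng4 (0.0115), Cacna2d4 (0.0415) and Kcnh4 (0.0163) also passed, with their highest means in Mut3. Kcnip2 (0.00966), chosen in the same way, passed with its lowest mean in Mut3.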

How the results depend on the processing

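Naïve brain libraries were the shallowest, so the lowest genes had the least chance of a call. Each named fold change that was called kept its direction under every alternative run. When 1 sample was left out, 2521 of the named genes' values stayed on their side of the threshold, 92 lost the call and 87 gained it, and under the other alternatives 1175, 25 and 102 did. Where counts moved, the cause was not tested beyond what is said here. Counts follow as channel genes lower or higher than naïve brain, without the shares of all genes beside them. Library size scaling gave 1 higher in 005. With no filter on low counts, GL261 had 26 lower and 2 higher, 005 had 3 lower and 4 higher, 2 were lower in all lines, 39 were called in none and 65 differed among lines. With at least 10 counts in every sample, which left 18 members, CT2A had 17 lower, Mut3 15 lower, every line 0 higher (0 higher in any and 0 called in none), and 12 differed. With the replicate block, GL261 had 0 higher, 005 had 1 higher and 24 differed; same-numbered samples correlated at a median r of −0.02 (30 pairs, −0.33 to 0.26), and 2 of 15 samples correlated best with their own number. With mitochondrial genes left out, Mut3 had 5 higher. With only the groups compared in the fit, CT2A had 1 higher, GL261 55 lower and 0 higher, 005 0 higher, 2 were called in none and 28 differed. DESeq2 gave 33 lower and 4 higher in GL261, 11 lower and 4 higher in 005, 8 lower in all lines and 67 differing. limma on log2(TPM + 1), which compresses low genes, gave 0 higher in CT2A, 43 lower and 0 higher in GL261, 36 lower and 1 higher in 005, 1 higher in Mut3, 35 lower in all lines, 2 higher in at least 1, 45 called in none and 5 differing. Leaving out 1 sample at a time, the ranges were 42 to 79 lower and 1 to 3 higher in CT2A, 3 to 47 and 0 to 3 in GL261, 0 to 68 and 1 to 4 in 005, 60 to 75 and 1 to 6 in Mut3, 0 to 39 lower in all lines, 3 to 7 higher in at least 1, 11 to 29 called in none and 21 to 62 differing. The high ends for counts lower in CT2A, GL261, 005, Mut3 and all lines came without 005 replicate 3.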
